A study of Mus musculus with 4 samples.

Results

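Bhlhe40 and 9 genes of the circadian clock were followed through osteoclast formation in mouse marrow cultures. The set was built around Bhlhe40, which was chosen by its far higher intensity in pre-osteoclasts than in macrophages on these same arrays, so that difference is given as a description. The members were Bhlhe40, Bhlhe41, Arntl, Clock, Per1, Per2, Cry1, Nr1d1, Nr1d2 and Dbp. All 10 were found among the 18193 genes named by the array annotation, and 19 of the 34945 probe sets assigned to a single gene symbol belonged to them.

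The data were 4 single-colour expression arrays, 1 for each culture stage. Marrow from C57BL/6 mice of 8 to 10 weeks, with no genetic change stated, was grown for 3 days with M-CSF, the macrophage growth factor, at 100 ng/ml to give bone marrow macrophages (BMM). After 2 days with M-CSF and RANKL, the cytokine that starts osteoclast formation, each at 100 ng/ml, mononuclear cells positive for the osteoclast stain TRAP were collected as pre-osteoclasts (pOC). Multinucleated osteoclasts formed from these when both cytokines were continued for 2 days, on plastic (mOCp) or on dentin, whose surface they resorb (mOCd). There was 1 array per stage and no replicate, so no value has an error over cultures and no test between stages was possible. The number of animals behind each RNA, the hour of harvest and any resetting of the clock in culture are not given in the sources used here. No array held cells kept with M-CSF alone for the same time, so the cytokine and the days in culture cannot be told apart.

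The circadian clock is a feedback loop of transcription. Arntl (also called Bmal1) and Clock form a pair that binds E-box sequences and switches on the Per and Cry genes, whose proteins then block that pair. The same pair drives the nuclear receptors Nr1d1 and Nr1d2 (REV-ERB alpha and beta), which repress Arntl, and the output factor Dbp. Bhlhe40 and its relative Bhlhe41 also bind E-boxes, where they repress, and both respond to signals outside the clock, among them low oxygen. Macrophages have a working clock, and Bhlhe40 is known in immune cells as a repressor of the cytokine gene Il10.

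The E-box is the sequence that ties these genes together, so the stretches that hold one in front of members are shown here. Windows from RefSeq (build GRCm38.p6), each with 250 bases before and 50 after a gene start, were at hand for 8 of the 10 members. The canonical E-box CACGTG, which reads the same on both strands, was present for 3 of them, against 8.09% of 27025 genes with such windows. The related AACGTG, on either strand, was present for 2, against 5.44% of genes. In each line the matched hexamer is in capitals, with up to 30 bases on either side, read 5′ to 3′ on the strand of the gene and ending before its start. The Bhlhe41 stretch is chr6:145865538-145865603 (minus strand), that of Per1 chr11:69098753-69098818 (plus strand), that of Cry1 chr10:85185079-85185144 (minus strand) and that of Nr1d1 chr11:98775378-98775435 (minus strand).
Bhlhe41: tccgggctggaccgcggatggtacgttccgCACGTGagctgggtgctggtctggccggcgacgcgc
Per1: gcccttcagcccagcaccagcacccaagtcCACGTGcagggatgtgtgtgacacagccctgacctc
Cry1: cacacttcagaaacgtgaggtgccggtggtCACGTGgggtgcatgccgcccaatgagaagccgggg
Nr1d1: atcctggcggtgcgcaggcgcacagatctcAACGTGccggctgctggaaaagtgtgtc
The Cry1 stretch also holds AACGTG, in lower case, ahead of its CACGTG. The motif TAGGTCA, the core bound by REV-ERB and ROR receptors, was found on either strand for 1 member, Arntl (2.97% of genes), and TTATGTAA, a form of the site bound by Dbp, for 0 of 8 (1.11% of genes). These matches do not overlap one another. A match describes the letters of the window only.

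Intensities were deposited as linear signals scaled to the same trimmed mean on every array. In the dim range of an array signal and background are hard to separate, so values below the 50th percentile of the array, from 12.7 in BMM to 15.8 in mOCd, were raised to it before ratios were taken (the floor). A gene counts as higher or lower where its ratio was at least 2-fold and its brighter value reached the 75th percentile of its array, from 77.8 in mOCp to 87.0 in BMM. A gene whose brighter value reached that percentile is called bright enough to be counted. Measurement error could be gauged only from how far the log2 ratios of 2 probe sets of one gene disagreed. The SD of these differences, divided by the square root of 2 to stand for 1 probe set, is called the probe-set disagreement. The SD of the differences themselves is larger. This disagreement was 0.391 to 0.504 on the log2 scale across the 5 comparisons. It holds no spread between cultures.

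The stage labels were checked against marker genes. Of 11 osteoclast markers 10 were counted as higher in pOC than in BMM, among them Ctsk (cathepsin K) at 357-fold and Mmp9, a secreted matrix protease, at least 465-fold, and all 11 in mOCp against BMM. Of 10 macrophage markers 9 were counted as lower in pOC than in BMM, 4 as higher in mOCp than in pOC and 4 as lower in mOCd than in mOCp. Their summed intensity was 24975.8 in BMM and 6646.6 in pOC, with 11598.4 in mOCp and 9333.5 in mOCd. Csf1r made up most of that sum after BMM, at 4898.6 in pOC, 7511.7 in mOCp and 7644.1 in mOCd. Summed intensity over 8 neutrophil markers was 323.5 in BMM and 841.8 in pOC, with 1886.1 in mOCp and 968.6 in mOCd. For 7 stromal and osteoblast markers the sums were 71.2, 301.9, 113.6 and 226.6 in the same order. Dcn, a matrix proteoglycan, made up most of the sum in pOC (196.1) and mOCd (127.3). It read 8.8 in BMM and 55.0 in mOCp. For 6 dendritic and mast cell markers the sums were 69.2, 63.9, 141.8 and 145.3. Of those 6 markers 4 or 5 lay at or under the floor on each array. The sums for erythroid, B, T and NK cell markers lay between 16.2 and 55.9. Arrays of mixed cultures cannot separate fewer cells of a type from less RNA per cell. The 3′ over 5′ ratio of the transferrin receptor control probe sets, a gauge of RNA integrity, was 1.70 on the log2 scale in mOCd and between 0.84 and 1.01 on the other arrays. The same ratio for Gapdh was −0.34 in mOCd and between −0.43 and −0.29 elsewhere, and for beta-actin 0.28 and between 0.16 and 0.29, so mOCd did not stand apart on these.

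**Figure D1:**
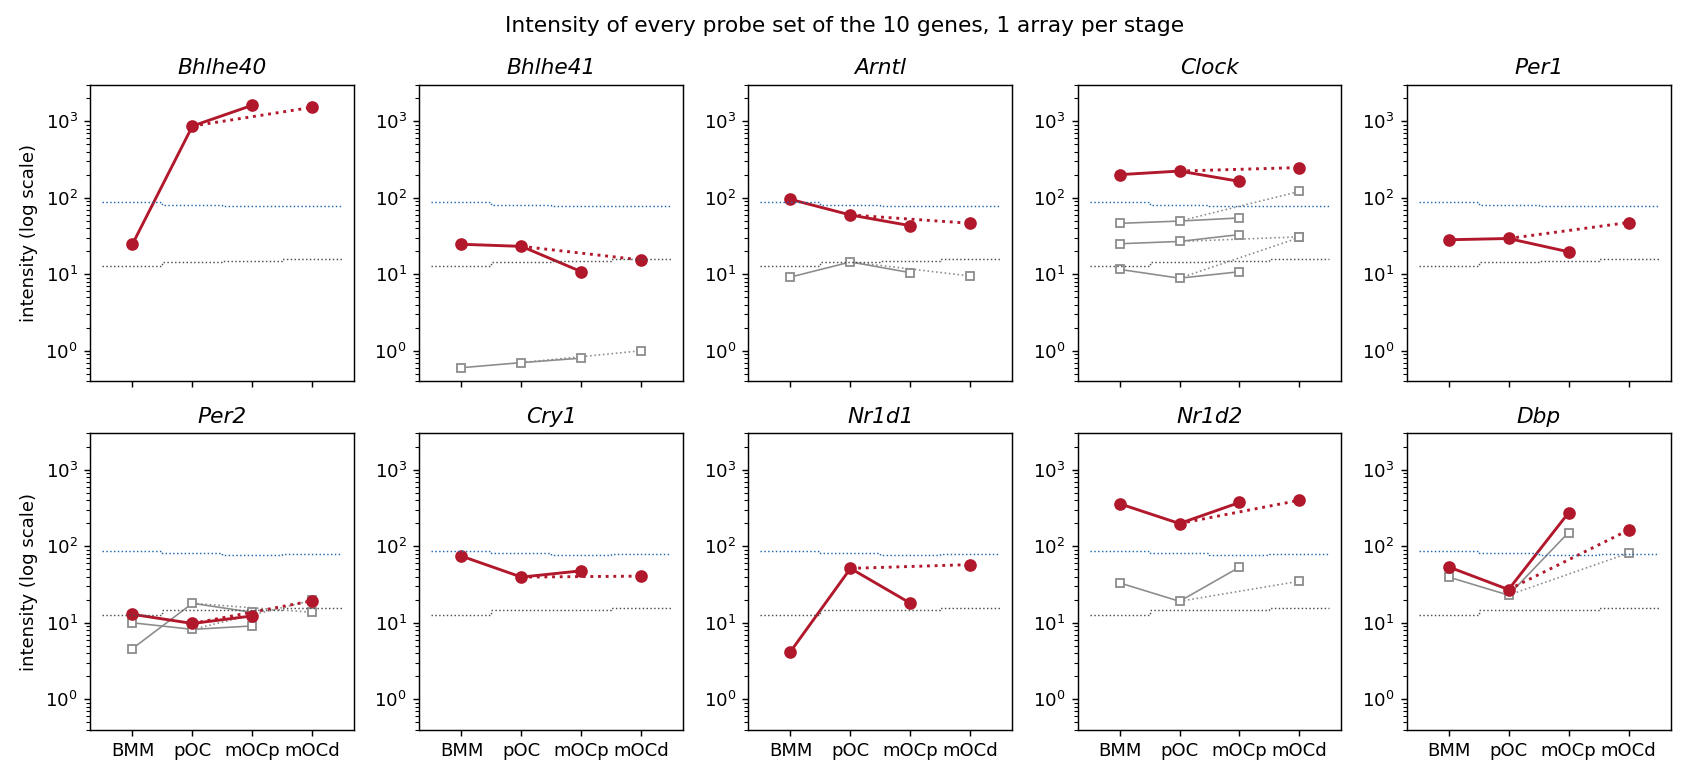
Intensity (log scale) of every probe set of the 10 genes on the 4 arrays; filled circles are the brightest probe set of the gene and open squares its other probe sets, dotted connecting lines lead to mOCd, and the lower and upper dotted steps mark the floor and the 75th percentile of each array. Bhlhe40 went from 24.8 in BMM to 870.5 in pOC, while Dbp was lowest in pOC and highest in mOCp.

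Bhlhe40 was the member with the widest range, and it was the repressor of the E-box pair that stood high in every RANKL-treated culture. Its 1 probe set read 24.8 in BMM and 870.5 in pOC, with 1628.3 in mOCp and 1530.3 in mOCd. The macrophage value stood alone at the low end, and the 2 mature cultures were close to each other. Over the 4 arrays it spanned 6.04 on the log2 scale, against a median of 1.05 for the 7789 genes that reached the 75th percentile on at least 1 array. That span includes the difference by which Bhlhe40 was chosen, so it is a description only.

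The 35.1-fold difference of Bhlhe40 between pOC and BMM (log2 ratio 5.13) is the one by which the gene was chosen. It was the 18th highest among 7254 genes bright enough to be counted. Most of the course was covered by that step. Maturation added 1.87-fold on plastic and 1.76-fold on dentin, log2 ratios of 0.90 and 0.81 that were under 2-fold, and mOCd and mOCp differed by 1.06-fold. From BMM to mOCp the ratio was 65.7-fold. The stromal marker Dcn was also higher in pOC than in BMM, at 196.1 against 8.8 (at least 15.4-fold), and the macrophage markers were lower, and their part in the Bhlhe40 values was not tested. The mOCp against pOC and mOCd against pOC ratios share the pOC array.

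Bhlhe41, the nearest relative of Bhlhe40 and a repressor at the same sites, did not share this course. Its brighter probe set read 24.7 in BMM and 23.2 in pOC, with 10.8 in mOCp and 15.4 in mOCd. Both mature values lay under the floor, so the mOCp level was at least 1.57-fold lower than in pOC and at least 1.67-fold lower than in BMM. The other probe set stayed at or below 1.0 on all arrays. Bhlhe41 never reached the 75th percentile and could not be counted in any comparison.

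The activating pair differed far less between stages than Bhlhe40. Arntl, which encodes the partner that gives the pair its rhythm, read 95.5 in BMM and 59.7 in pOC, with 43.2 in mOCp and 46.5 in mOCd. The 3 RANKL-treated cultures were all below the macrophages, and the mature cultures were lowest. The pOC value was 1.6-fold lower than BMM, short of 2-fold, and the mOCp value 2.21-fold lower, which was counted. That call rested on 1 probe set, whose _a_at suffix marks a set shared by several transcripts of a gene, since the other one lay at or under the floor on all 4 arrays. It was not counted after quantile or loess normalization, when all probe sets were averaged, or when suffixed ones were left out.

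Clock, the other partner of the pair, read 201.2 in BMM and 224.1 in pOC, with 164.2 in mOCp and 249.1 in mOCd. These 4 values stayed within 1.52-fold of each other. Its probe sets disagreed in the dentin culture. A second one read 46.4, 49.7, 54.6 and 121.4 in the same order, so mOCd exceeded pOC by 1.29 on the log2 scale there, against 0.15 on the brightest and 0.20 on another. The remaining probe set exceeded the floor in mOCd alone, at 30.3, which was at least 1.06 above pOC. The 3′ over 5′ ratio of the transferrin receptor control, given above, was also highest in mOCd, those of Gapdh and beta-actin were not, and its part in this disagreement was not tested.

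The Per and Cry genes, the feedback inhibitors of the pair, were dim. Cry1 read 74.5 in BMM and 39.6 in pOC, with 47.9 in mOCp and 40.8 in mOCd. Macrophages were highest and the 3 later cultures lay together, 1.88-fold lower in pOC than in BMM, but Cry1 stayed under the 75th percentile on every array. Per1 read 28.3, 29.4, 19.7 and 47.6 in the same order, lowest on plastic and highest on dentin. The mOCd value of Per1 was 2.42-fold above mOCp, a log2 ratio of 1.27 against a probe-set disagreement of 0.427, at intensities too dim to be counted.

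Per2 was at the limit of measurement on all 3 of its probe sets. Its brightest one read 12.9 in BMM and 9.8 in pOC, with 12.3 in mOCp and 19.4 in mOCd, and no fold is given where the values lie at the floor. Its only values above the floor were those in BMM, by a small margin, and mOCd. The other 2 probe sets exceeded the floor once each, in mOCd on one and in pOC on the other, so they named different stages as the highest.

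The nuclear receptors that repress Arntl went separate ways at the first step. Nr1d1 read 4.2 in BMM and 51.5 in pOC, with 18.0 in mOCp and 57.7 in mOCd. BMM lay under the floor and mOCp just above it, while pOC and mOCd were close to each other. The pOC level was at least 4.06-fold above BMM. It was 2.86-fold lower in mOCp than in pOC and 3.21-fold higher in mOCd than in mOCp. None of these was counted, because Nr1d1 stayed below the 75th percentile on every array. It has 1 probe set.

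Nr1d2 was bright enough on all 4 arrays and had its low point in pOC. Its brightest probe set read 361.1 in BMM and 198.8 in pOC, with 374.8 in mOCp and 400.7 in mOCd. Macrophages and both mature cultures lay together, above the pre-osteoclasts. The pOC value was 1.82-fold lower than BMM. On dentin the level was 2.02-fold above pOC, just inside the 2-fold limit, and on plastic 1.89-fold above it, just outside. The call on dentin was lost with median scaling, with spike-in scaling and when all probe sets were averaged. The second probe set also had its lowest value in pOC, 19.1 against 33.3 in BMM, 53.4 in mOCp and 35.0 in mOCd.

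Dbp, the output transcription factor, had the widest range among members after Bhlhe40, 3.33 on the log2 scale with the floor used here. Nr1d1, at 2.18, has only a lower bound, and with the floor at the 25th percentile its pOC against BMM ratio alone was 3.62. The brightest probe set of Dbp read 53.9 in BMM and 27.2 in pOC, with 274.2 in mOCp and 163.4 in mOCd. Both mature cultures stood above the earlier stages, with plastic above dentin and pre-osteoclasts lowest. The second probe set gave the same order, with 39.7, 23.0, 151.6 and 81.5.

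Against pOC, Dbp was 10.1-fold higher in mOCp (log2 ratio 3.33, and 2.72 on the other probe set), the 20th highest of 7191 genes bright enough to be counted. In mOCd it was 6.01-fold higher (2.59, and 1.83 on the other probe set), the 55th highest of 7230. Against BMM, mOCp was 5.09-fold higher, whereas pOC was 1.98-fold lower than BMM with both values under the 75th percentile. On dentin the level was 1.68-fold lower than on plastic. The summed neutrophil markers were likewise highest in mOCp and next highest in mOCd. The summed macrophage markers too were higher in mOCp than in mOCd and lowest in pOC, although highest in BMM. Csf1r made up most of that sum in pOC (4898.6) and mOCd (7644.1). The other macrophage markers were divided on whether pOC or mOCd was lower, with most lower in mOCd. Of 6 dendritic and mast cell markers 5 lay at or under the floor in pOC, and the remaining one, Itgax, was lowest in BMM. The part of these cells in the Dbp values was not tested.

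**Figure D2:**
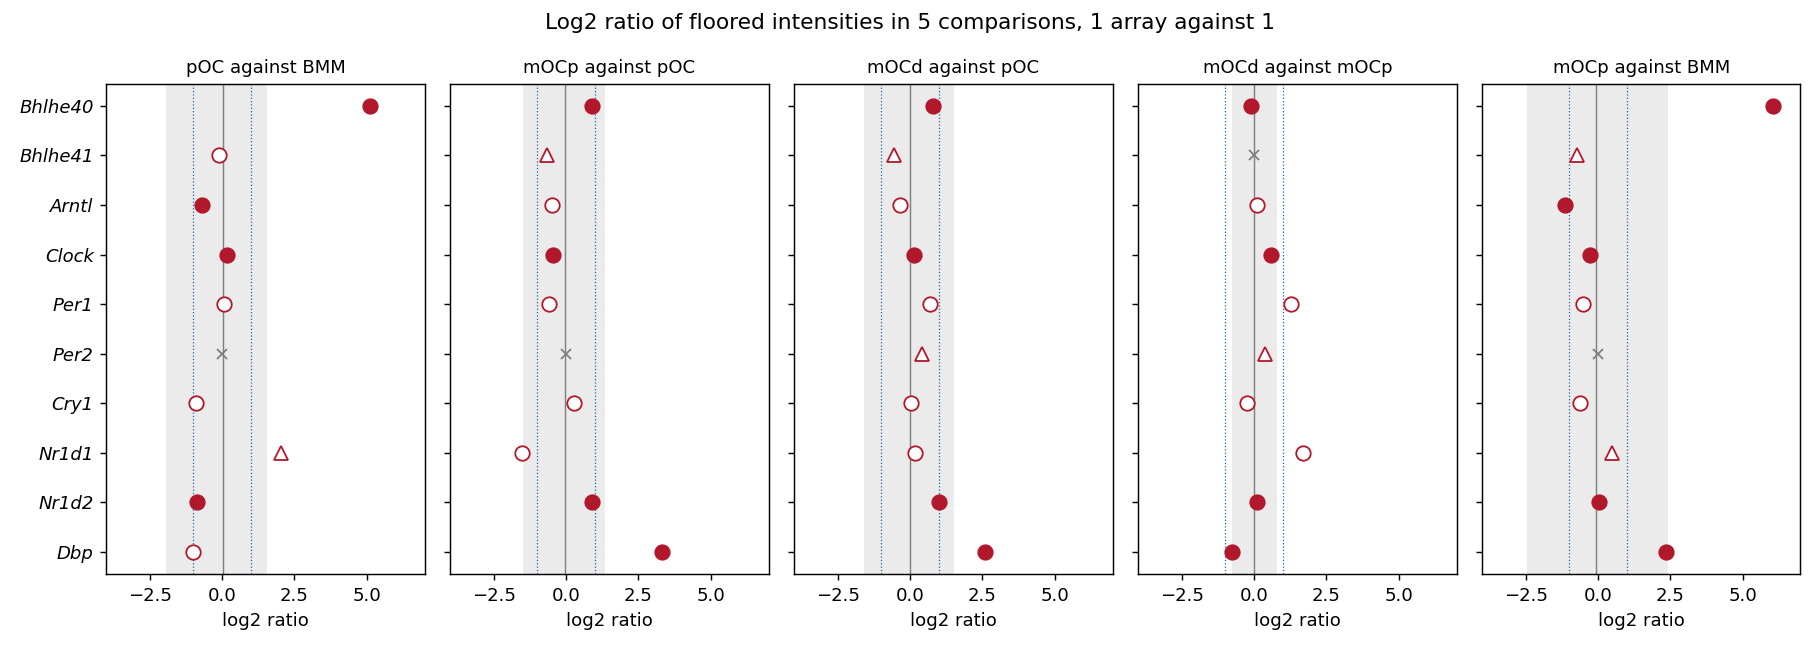
Log2 ratio of floored intensities for the 10 genes in the 5 comparisons, 1 array against 1; filled symbols are genes bright enough to be counted, triangles have 1 array at the floor, crosses have no usable ratio, the grey band runs from the 5th to the 95th percentile of all genes bright enough to be counted with their median as a line, and dotted lines mark 2-fold. Bhlhe40 at 5.13 in pOC against BMM and Dbp at 3.33 in mOCp against pOC lie outside the band.

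Counts over the set were small, since at most 5 members were bright enough in a comparison. In pOC against BMM 4 of 10 members were bright enough, of which 1 (Bhlhe40, which chose the set) was higher and 0 lower. Of all 7254 genes bright enough there, 11.1% were higher and 13.1% lower, 24.2% in all. The median log2 ratio of those 4 members was −0.26, against 0.04 for all 7254 genes. In mOCp against pOC 1 of 4 was higher (Dbp) and 0 lower, against 8.77% higher and 11.4% lower of 7191 genes, 20.2% in all, with medians of 0.91 and −0.03. In mOCd against pOC 2 of 4 were higher (Nr1d2 and Dbp) and 0 lower, against 10.8% higher and 12.2% lower of 7230 genes, 23.0% in all, with medians of 0.91 and −0.01.

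Between the mature cultures, mOCd against mOCp, 0 of 4 members were counted as higher or lower, against 2.2% higher and 2.55% lower of 6913 genes, 4.74% in all, with medians of 0.00 and 0.01. Over the whole course on plastic, mOCp against BMM, 2 of 5 were higher (Bhlhe40 and Dbp) and 1 lower (Arntl), against 16.8% higher and 19.3% lower of 7458 genes, 36.1% in all, with medians of 0.05 and −0.06. With 4 or 5 members bright enough in each comparison, these shares do not set the clock genes apart from other genes. Bright enough were Bhlhe40, Clock and Nr1d2 in all 5 comparisons, Dbp in the 4 with a mature culture and Arntl in the 2 with BMM. The other 5 members never were.

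The numbers of all genes counted depend on the scaling. In pOC against BMM 806 were higher and 953 lower, against 586 and 1213 with arrays scaled to the same median and 1031 and 785 with arrays scaled to the spike-in controls. In mOCp against pOC 631 were higher and 820 lower, against 284 and 1653 with spike-in scaling. In mOCd against pOC 779 were higher and 885 lower, against 442 and 1596 with spike-in scaling. Between mOCd and mOCp 152 were higher and 176 lower, against 111 and 230 with median scaling and 195 and 146 with spike-in scaling. In mOCp against BMM 1254 were higher and 1442 lower, against 994 and 1856 with median scaling and 953 and 1953 with spike-in scaling. Spike-in scaling moved the median gene by −0.432 on the log2 scale in mOCp against pOC and by −0.355 in mOCd against pOC. The Bhlhe40 ratio to BMM and the Dbp ratios to pOC kept their direction and their call under every scaling tried.

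The rest of the clock pathway was read from 27 further genes in 4 lists, of which 24 had a probe set of their own and 21 exceeded the floor on at least 1 array. In pOC against BMM 12 of these 24 were bright enough, of which 1 was counted as higher and 2 as lower, against 24.2% of all genes in either direction. In mOCp against pOC 0 were higher and 2 lower of 13, against 20.2%. In mOCd against pOC 1 was higher and 2 lower of 13, against 23.0%. Between the mature cultures 0 of 12 were counted, against 4.74%, and in mOCp against BMM 1 was higher and 3 lower of 13, against 36.1%. The medians over the 21 measured genes lay between −0.24 and 0.12.

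Among the other positive-limb genes, which can stand in for Arntl and Clock or activate Arntl, none of 4 was bright enough. Rora, a receptor that activates Arntl at the sites where Nr1d1 represses it, read 10.3 in BMM and 14.9 in pOC, with 37.0 in mOCp and 41.7 in mOCd. In the negative limb Timeless, a replication fork protein also tied to the clock, read 231.9 in BMM and 88.5 in pOC, with 18.0 in mOCp and 15.8 in mOCd. The mOCp value was just above the floor and the mOCd value at it, so the mature cultures cannot be ranked. Timeless was 2.62-fold lower in pOC than in BMM and 4.92-fold lower in mOCp than in pOC, with its other probe set on the same side in both (log2 ratios of −0.97 and −1.15). The mOCp against pOC call was lost when both probe sets were averaged, as was that of mOCd against pOC. The inhibitor Cry2 read 29.7, 19.0, 27.3 and 13.1, and Ciart, another repressor of the loop, exceeded the floor only in BMM, at 28.7.

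The bZIP factors closest to Dbp differed by less than Dbp did. Tef, which binds the same sites as Dbp, read 108.9 in BMM and 90.5 in pOC, with 132.6 in mOCp and 198.7 in mOCd. As with Dbp and Nr1d2 its lowest value was in pOC, and it was 2.2-fold higher in mOCd than in pOC, which was counted. Its other probe set above the floor went the opposite way in that comparison, at −0.28 on the log2 scale, and the call was lost with spike-in scaling and when all probe sets were averaged. Nfil3, a repressor that competes for those sites, read 20.5, 18.3, 39.4 and 51.0, too dim to be counted. Hlf, the remaining factor of this group, stayed under the floor on all 4 arrays.

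Of 15 kinases, ubiquitin ligases and cofactors of the clock 13 had a probe set and all 13 exceeded the floor. Btrc, a ligase subunit that marks PER proteins for destruction, read 44.6 in BMM and 114.5 in pOC, 2.57-fold higher, then 112.4 in mOCp and 128.9 in mOCd, on the 1 probe set of Btrc above the floor in that comparison. The call was lost when all probe sets were averaged and when suffixed ones were left out. Nampt, which makes an NAD precursor, was 2.05-fold lower in pOC than in BMM, a call lost with spike-in scaling. Sfpq, an RNA-binding cofactor of the PER complex, read 773.5, 756.5, 198.7 and 285.0, so that it was 3.81-fold lower in mOCp and 2.65-fold lower in mOCd than in pOC. Its 5 other probe sets ranged from −1.95 to 0.07 on the log2 scale in the first of these and from −1.36 to 0.85 in the second, and the call on dentin was lost when they were averaged. The deacetylase Sirt1 was 2.02-fold lower in mOCp than in BMM, which was lost after quantile or loess normalization.

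**Figure D3:**
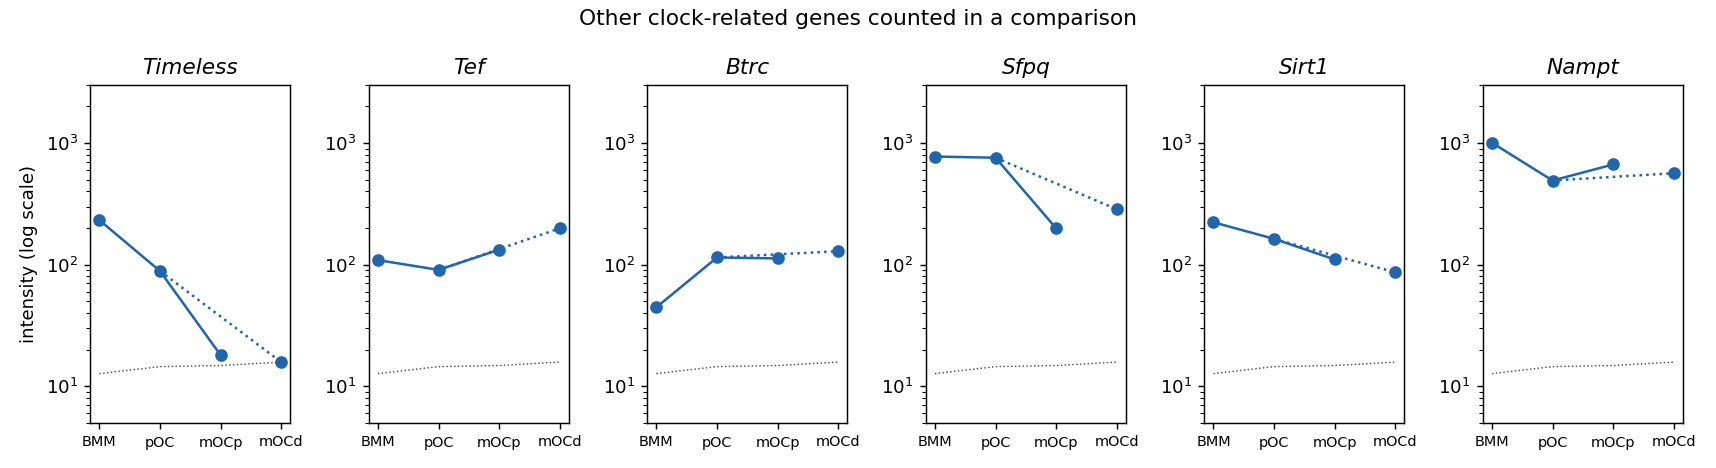
Intensity (log scale) on the 4 arrays of the 6 further clock-related genes counted in at least 1 comparison, with dotted connecting lines leading to mOCd and the lower dotted line at the floor. Timeless went from 231.9 in BMM to 15.8 in mOCd, where it lay at the floor, and Btrc from 44.6 in BMM to 114.5 in pOC.

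Genes tied to Bhlhe40 by earlier work were looked up as a list of 8, of which 7 had a probe set. Il10, which Bhlhe40 represses in immune cells, was dim, at 18.0 in BMM and 16.8 in pOC, with 9.4 in mOCp and 35.4 in mOCd. Maf, a transcription factor of macrophages, was 17.9-fold lower in pOC than in BMM, at 63.1 against 1131.9, and read 171.4 in mOCp and 76.8 in mOCd. Nfatc1, the master factor of osteoclast formation, read 130.9, 2549.2, 1971.8 and 3330.6, with its main step between BMM and pOC, where Bhlhe40 had its own. Pparg, a lipid-sensing receptor, was at least 6.10-fold lower in pOC than in BMM. Il1b, an inflammatory cytokine, was 4.42-fold higher in mOCp than in pOC. Neither Pparg nor Il1b had another probe set above the floor, and both calls were lost when suffixed probe sets were left out.

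Low oxygen is a known inducer of Bhlhe40, and a list of 11 hypoxia genes was set beside it. In pOC against BMM 0 of 11 were counted, with 5 bright enough, against 24.2% of all genes in either direction. In mOCp against pOC 10 of 11 were counted as higher, against 8.77% of all genes, with a median log2 ratio of 2.28. In mOCd against pOC 10 of 11 were also higher, against 10.8%, with a median of 2.32. Hif1a, which encodes the oxygen-regulated subunit of the inducing factor, read 1729.0 in BMM and 954.8 in pOC, with 578.1 in mOCp and 648.5 in mOCd. The part of low oxygen in the Bhlhe40 values was not tested at any step.

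The genes whose course was most like that of Bhlhe40 were sought among 7789 genes by the Euclidean distance between log2 values over the 4 arrays, each gene centred on its own mean. The nearest were Bdh1 (distance 0.41), Sdc1 (0.48), Acad10 (0.54), Akap6 (0.54), Grk3 (0.62) and Coq8a (0.63). On these probe sets all 6 had their largest step between BMM and pOC, which follows from their being chosen for nearness to Bhlhe40. Bdh1, a ketone body enzyme, read 34.7 in BMM and 959.6 in pOC, with 2548.7 in mOCp and 2390.9 in mOCd. A further probe set of Bdh1 was under the floor in BMM and read 99.4 in pOC, 448.4 in mOCp and 655.7 in mOCd. There dentin lay above plastic. Sdc1, the cell-surface proteoglycan syndecan-1, read 45.2, 1349.9, 1888.5 and 2484.5. A further probe set of Acad10 ran the other way, from 29.6 in BMM to 5.8 in pOC, so its likeness rests on 1 probe set. A further one of Coq8a was under the floor in BMM and pOC and read 50.7 in mOCp and 30.7 in mOCd. A further one of Akap6 was lower on dentin, at 24.3, than on plastic, where the brightest one was higher on dentin. No clock member came near, with distances from 4.0 for Nr1d1 to 5.86 for Arntl. The distance counts the size of a course as well as its shape. Bhlhe40 spanned 6.04 on the log2 scale and no other member more than 3.33, so the members' distances do not compare shapes alone. With 4 arrays such a likeness is a description of these arrays only.

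**Figure D4:**
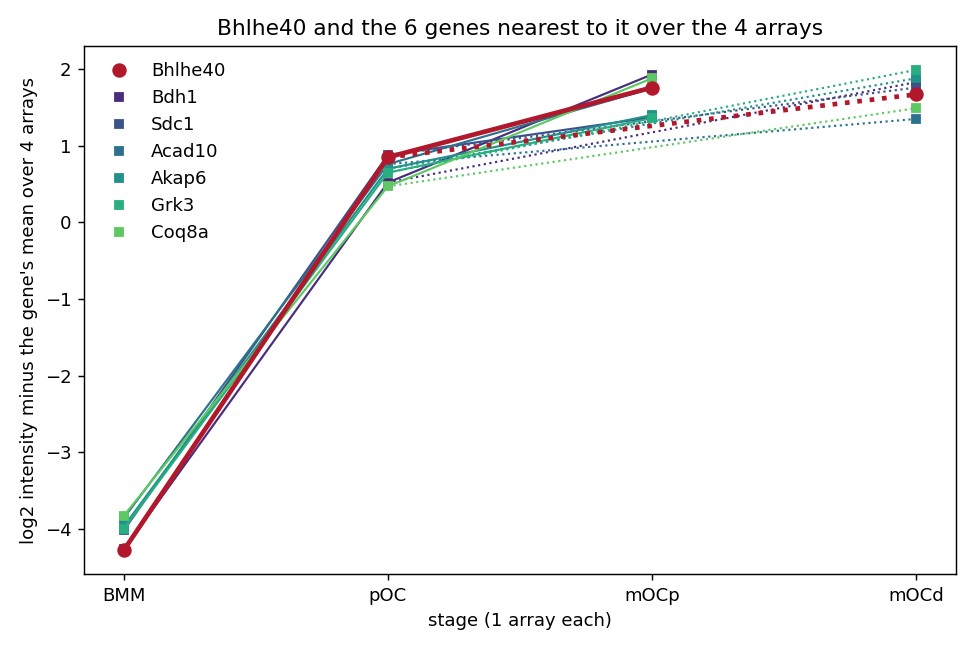
Log2 intensity minus the mean of the gene over the 4 arrays for Bhlhe40 (thick line) and the 6 genes nearest to it, with dotted lines leading to mOCd. Bhlhe40 runs from −4.28 in BMM to 0.85 in pOC and 1.76 in mOCp.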

How the data were processed

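RNA of 4 mouse culture stages, BMM, pOC, mOCp and mOCd, was measured on 1 Affymetrix-type array each. The deposited values were linear intensities. MAS5 appears, without a version, among the tools of the submitters' processing notes. As deposited, the mean intensity after trimming 2% at each end was 100.0 on every array. The number of arrays limits the precision, and no detection calls were used here. Of 45101 probe sets 64 were controls, and 34945 carried 1 symbol in a platform annotation of 2016.

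Each gene was represented by its brightest probe set by mean log2 value, values under 0.1 being raised to 0.1 for this mean. Floor, brightness limit and fold limit are those given with the results. No test was possible with 1 array per stage, and none was run. The calling step was run on simulated data with changes beyond 2-fold, in bright genes and with noise below the probe-set disagreement. That run does not cover calls near 2-fold or near the floor. Genes named singly were the members, every counted gene of the pathway and Bhlhe40-linked lists, and the 6 nearest to Bhlhe40. Further genes of these lists, marker genes and the oxygen gene Hif1a were named after their values were seen. The members and lists were chosen with earlier results of these data known. The alternatives were 2 other floors, 4 other scalings (2 of them with limma 3.58.1 in R 4.3.3), 2 other ways to represent a gene, a 1.5-fold limit and a brightness limit at the floor. Other steps used Python 3.11.15 with numpy 2.4.6 and pandas 2.3.3. Promoter windows came from RefSeq. Windows of Bhlhe40 and Per2 were not used here.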

Additional observations from a re-analysis of the deposited data

Results flagged for a closer look

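Per1 went in opposite directions in the mature cultures. Against pOC its log2 ratio was −0.58 on plastic and 0.70 on dentin, each larger than the probe-set disagreement (0.397 and 0.504). The plastic ratio was −0.28 with the floor at the 60th percentile, and the dentin ratio was 0.34 with spike-in scaling. Each of these was smaller than its disagreement, with the direction kept. The plastic and dentin ratios share the pOC array, each rests on 1 mature array and 1 dim probe set, and the difference was not tested.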

How the results depend on the processing

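Of 395 member ratios recomputed under other floors, scalings and probe-set choices, 362 moved by less than the probe-set disagreement. Part of these could not move. A changed floor leaves ratios of values above it as they were, and averaging leaves the 4 members with 1 probe set as they were. Of the 395 ratios 35 changed sign, of which 34 were ratios that were not counted (at most 0.74 in size). The 1 counted ratio that did so was Arntl in mOCp against BMM, which read 0.22 without suffixed probe sets, where its remaining probe set lies at or under the floor. Spike-in scaling moved 10 of 50. In pOC against BMM the count of members went from 1 to 2 with median scaling (Nr1d2 lower), to 3 with the 1.5-fold limit (Arntl and Nr1d2 lower) and to 2 with the brightness limit at the floor (Nr1d1 higher). In mOCp against pOC it went from 1 to 2 with the mean over probe sets (Nr1d2 higher), to 3 with 1.5-fold (Bhlhe40 and Nr1d2 higher) and to 2 with the brightness limit at the floor (Nr1d1 lower). In mOCd against pOC it went from 2 to 1, leaving Dbp, with median scaling, spike-in scaling or the mean over probe sets. Between mOCd and mOCp it went from 0 to 2 with 1.5-fold (Clock higher, Dbp lower) and to 2 with the brightness limit at the floor (Per1 and Nr1d1 higher). Over 8 alternatives the log2 ratio of Bhlhe40 in pOC against BMM ranged from 4.94 to 5.30, and that of Dbp in mOCp against pOC from 2.72 to 3.44. The 2 other floors could move neither ratio, since the values lay above them. Only the scalings could move that of Bhlhe40, which has 1 probe set without a suffix. Of the 10 members 5 never reached the 75th percentile of an array. No paired analysis was possible because each stage has 1 array.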
